A study of Homo sapiens with 12 samples.

Results

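The genes of nucleotide excision repair (NER) were followed in RNA-seq libraries of TYK-nu cells, a line derived from a high-grade serous ovarian carcinoma. With earlier results of these data known, the set was drawn up as a list of 35 genes by their known roles in this repair pathway. Of these, 34 had a row in the count table of 17508 genes and make up the set described here, while ELOF1 was not analysed here. The cells were not genetically modified according to the labels and received 15 μM cisplatin, a platinum drug that forms adducts with DNA, or DMSO, the control, for 24 or 72 h. Each of the 4 groups had 3 replicate libraries, 12 in all, and all of the cells came from 1 line. The study describes cells grown in triplicate and does not say whether these came from separate passages or days, so the p-values measure the spread between these libraries, which may be technical.

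NER removes bulky lesions, cisplatin adducts among them, by cutting out a short stretch of the damaged strand. In global genome repair, XPC with RAD23B and CETN2 finds the distorted helix, helped by the DDB1-DDB2 complex and its CUL4-RBX1 ubiquitin ligase. In transcription-coupled repair, a stalled RNA polymerase II recruits ERCC6 (CSB), ERCC8 (CSA) and UVSSA. Both branches load TFIIH, which opens the helix. XPA and the single-strand binding complex RPA then verify and hold the lesion, ERCC1-ERCC4 (XPF) cuts on its 5′ side and ERCC5 (XPG) on its 3′ side, and the gap is filled by a polymerase and sealed by a ligase.

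Exon and intron fragments were counted separately for each gene, and their sum ranged from 18526830 to 68753262 per library. The 34 NER genes together held between 56078 and 186488 exon counts and between 2976 and 11739 intron counts in a library. All 34 genes passed the filters on low counts, for exon counts, intron counts and their ratio. Of the markers of the labelled line, KRT18 lay between 133 and 181 CPM (counts scaled to a common library size) and KRT8 between 11.02 and 34.5 CPM, WT1 between 1.59 and 4.19 CPM and EPCAM between 0.117 and 1.68 CPM, whereas PAX8 had at most 2 counts and KRT7 at most 8 counts in any library. Among markers of other cell types, PTPRC had 0 counts in every library and ALB at most 3, while PECAM1, an endothelial adhesion molecule, lay between 1350.3 and 2491 CPM. The part of these marker levels in the results below was not tested.

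The level of each NER gene was expressed as exon CPM per kb of its Ensembl canonical transcript, so that genes of different length could be compared. On this scale DDB1, the adaptor of the CUL4 ligase, was the most abundant, with a median over the 12 libraries of 140.3 and a range of 108 to 170.5. It was followed by TCEA1, an elongation factor of RNA polymerase II, at a median level of 116, and by RPA2, the middle RPA subunit, at 78.7. The lowest levels belonged to the transcription-coupled factors ERCC6, at a median of 0.555 with a range of 0.497 to 0.650, and UVSSA, at 0.666 with a range of 0.577 to 0.748. ERCC6 and UVSSA overlapped across the libraries, as did the next pair, ERCC4 at 2.46 and ERCC8 at 2.56. Between roles, the median level was 37.5 for the 8 global genome recognition genes and 9.48 for the 6 measured transcription-coupled genes, with 9.05 for the TFIIH core, 18.9 for ligation, 27.3 for the CDK-activating kinase and 29.8 for verification and incision. With the union of all annotated exons as the length, TCEA1 ranked 1 and DDB1 ranked 5, and the role medians were 21.1 for global genome recognition, 18.7 for verification and incision, 11.9 for the kinase, 5.93 for the transcription-coupled genes, 5.19 for ligation and 4.59 for the TFIIH core. The place of ligation among the roles thus depended on the length used.

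**Figure D1:**
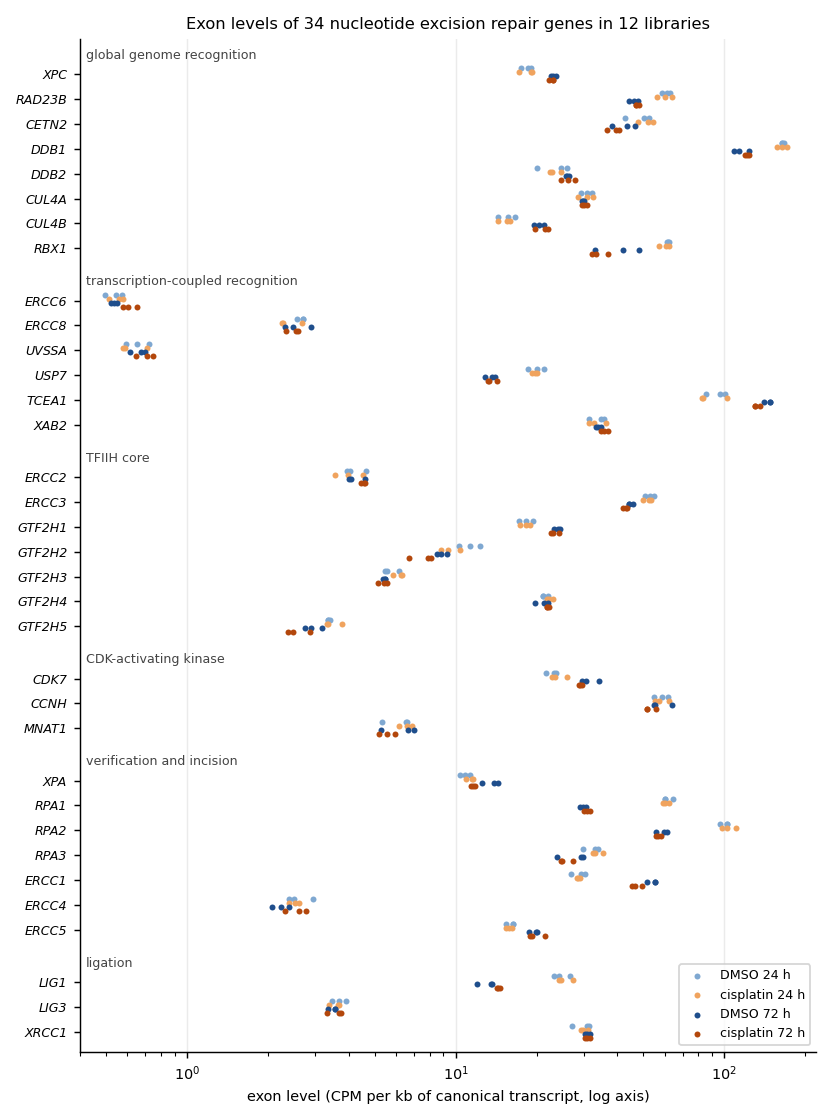
Exon levels of the 34 NER genes (CPM per kb of canonical transcript, log axis) in each of the 12 libraries, by role and coloured by group. DDB1, TCEA1 and RPA2 had the highest medians, ERCC6 and UVSSA the lowest, and the 72 h points of RPA1, RPA2, LIG1 and ERCC1 stand apart from their 24 h points.

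The first question was whether cisplatin changed the counts of NER genes at either time. No NER gene passed the test for exon counts, with 0 of 34 at 24 h and 0 of 34 at 72 h (edgeR's quasi-likelihood test, adjusted over all genes tested). The background was equally low, since 0.0% of 10444 tested genes were called at 24 h and 0.0287% at 72 h. At an unadjusted p under 0.05 there was 1 NER gene at 24 h and there were 5 at 72 h, against 2.49% and 12.6% of all tested genes, and DESeq2 called 0 at 24 h and 1 at 72 h. Of all 10444 genes, DESeq2 called 0 at 24 h, and 38 higher and 41 lower at 72 h. The log2 changes with cisplatin ran from -0.25 for GTF2H2 to 0.10 for GTF2H3 at 24 h, with a median of -0.010. At 72 h they ran from -0.26 for RBX1 to 0.20 for ERCC6, with a median of -0.0055. All 34 intervals (95%) lay between -0.46 and 0.31 at 24 h and between -0.44 and 0.45 at 72 h.

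XPC and DDB2, the damage sensors that p53 is known to induce, were close to their DMSO levels. The exon log2 change of XPC with cisplatin was 0.010 at 24 h (95% interval -0.11 to 0.13) and -0.015 at 72 h (-0.13 to 0.10). That of DDB2 was -0.017 at 24 h (-0.18 to 0.15) and 0.0058 at 72 h (-0.15 to 0.16). Of 15 listed p53 targets, 9 passed the filter on low counts and 0 were called with cisplatin at either time by edgeR, with 0 at 24 h and 1 at 72 h under an unadjusted p of 0.05.

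The 5 NER genes below an unadjusted p of 0.05 at 72 h all had lower exon counts with cisplatin, a number close to the background of 12.6%. ERCC1, the partner of the 5′ nuclease, had a log2 change of -0.19 (SE 0.0549, adjusted p = 0.175), and RBX1, the RING subunit of the CUL4 ligase, one of -0.26 (SE 0.0905, adjusted p = 0.26). XPA had -0.22 (adjusted p = 0.272), GTF2H5 -0.20 (adjusted p = 0.343) and GTF2H2 -0.22 (adjusted p = 0.356). Under DESeq2, ERCC1 passed with an adjusted p of 0.0378, and over the alternatives tried for it the adjusted p ran from 0.0378 to 0.758. RBX1 passed without a filter on low counts (adjusted p = 0.0256) and without DMSO 72 h replicate 3, where its log2 change was -0.40 (adjusted p = 0.0243), with a range over its alternatives of 0.0243 to 0.808. The fit without that filter called 93 higher and 61 lower of 13148 genes at 72 h.

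In 7 NER genes the cisplatin and DMSO libraries of 72 h did not overlap, against 18.1% of all tested genes. ERCC6 and LIG1 were higher in all 3 cisplatin libraries, whereas TCEA1, ERCC3, GTF2H2, XPA and ERCC1 were lower in all 3. At 24 h there were 0 such NER genes, against 6.42% of all tested genes. The change of the cisplatin effect from 24 to 72 h was tested as an interaction and called 0 of 34 NER genes (background 0.0%), with 2 at an unadjusted p under 0.05, XPA and ERCC1, against 9.43% of all tested genes.

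**Figure D2:**
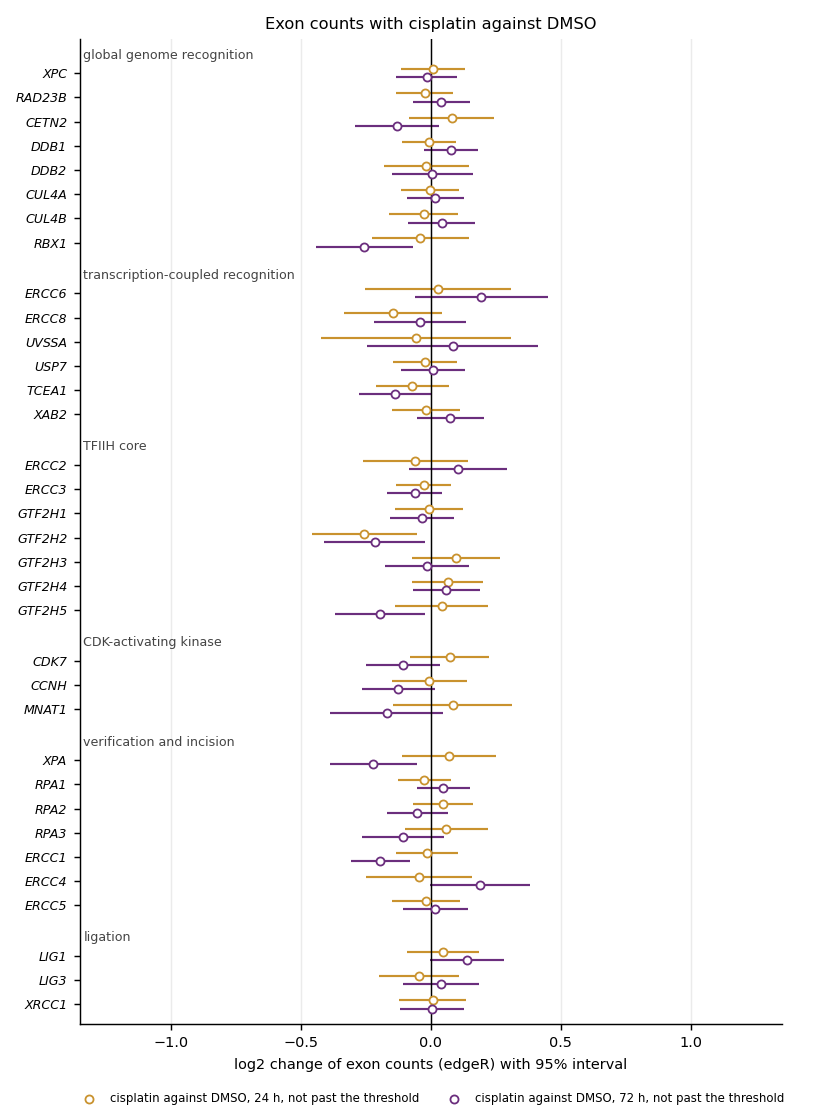
Log2 change of exon counts with cisplatin against DMSO (edgeR) for the 34 NER genes by role, at 24 h and 72 h, with 95% intervals as lines. Every symbol is open because no gene passed the test, and all intervals lie between -0.46 and 0.45.

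The second question was what differed between 24 and 72 h, in DMSO and in cisplatin taken separately. The arms shared no library. Exon counts of 20 of the 34 NER genes passed the test in DMSO, 8 higher and 12 lower at 72 h, and 20 passed in cisplatin, 7 higher and 13 lower. These counts stand beside a background of 65.1% of all tested genes in DMSO (32.6% higher and 32.5% lower) and 63.5% in cisplatin (32.0% higher and 31.5% lower). In both arms 19 NER genes were called, 7 higher in both and 12 lower in both, with 0 in opposite directions. Of all tested genes, 55.2% were called in the same direction in both arms, and these 19 of 34 are a share (55.9%) close to that background. The 24 and 72 h libraries did not overlap in 19 NER genes in DMSO (background 67.4%) and in 22 in cisplatin (background 67.2%). The median log2 change over the 34 genes was -0.036 in DMSO and -0.0090 in cisplatin, against 0.015 and 0.017 over all tested genes. The 24 and 72 h libraries differed in time in culture as well as in time since the addition of DMSO or cisplatin, which cannot be told apart, nor can fewer cells of a kind be told apart from less RNA per cell.

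**Figure D3:**
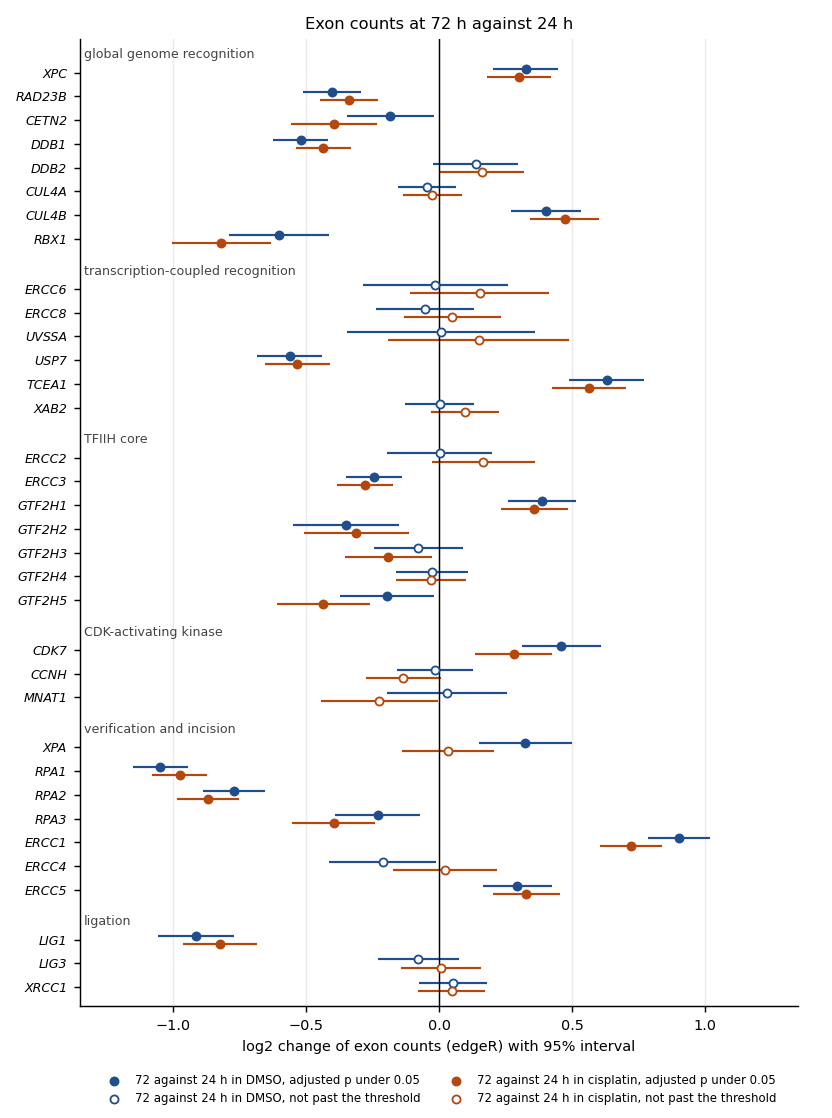
Log2 change of exon counts at 72 h against 24 h (edgeR) for the 34 NER genes by role, in DMSO and in cisplatin, with 95% intervals as lines; filled symbols passed an adjusted p of 0.05. RPA1, RPA2, LIG1 and RBX1 lie farthest to the left and ERCC1 and TCEA1 farthest to the right in both arms.

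The promoters of 5 of these genes are shown, and all 5 hold a match to a motif marked below. Those of ERCC1 and RBX1, whose counts also changed with time, hold none and are not shown. RPA1 and LIG1 had lower exon and intron counts at 72 h, XPC and GTF2H1 had higher exon counts, and DDB2 had lower intron counts. The sequences are RefSeq's (GRCh38.p14), the 250 bases before the annotated start on the strand of the gene, with 5′ at the left. Capitals mark matches on either strand to an E2F site (TTTGGCGC, TTTCCCGC, TTTGGCGG, TTTCCCGG or TTTCGCGC), a CCAAT box (CCAAT) or an ETS site (CCGGAAGT).
RPA1 chr17:1829755-1830004, plus strand: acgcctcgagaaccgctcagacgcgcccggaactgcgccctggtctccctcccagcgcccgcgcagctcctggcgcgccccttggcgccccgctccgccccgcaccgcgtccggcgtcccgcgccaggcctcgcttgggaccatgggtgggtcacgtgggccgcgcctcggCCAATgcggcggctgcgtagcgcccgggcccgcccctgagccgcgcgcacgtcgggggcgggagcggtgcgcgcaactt
LIG1 chr19:48170345-48170594, minus strand: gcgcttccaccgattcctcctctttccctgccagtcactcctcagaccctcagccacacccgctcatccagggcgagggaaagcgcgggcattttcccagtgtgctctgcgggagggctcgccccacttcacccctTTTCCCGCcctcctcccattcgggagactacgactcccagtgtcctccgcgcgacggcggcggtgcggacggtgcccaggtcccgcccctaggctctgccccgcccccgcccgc
XPC chr3:14178602-14178851, minus strand: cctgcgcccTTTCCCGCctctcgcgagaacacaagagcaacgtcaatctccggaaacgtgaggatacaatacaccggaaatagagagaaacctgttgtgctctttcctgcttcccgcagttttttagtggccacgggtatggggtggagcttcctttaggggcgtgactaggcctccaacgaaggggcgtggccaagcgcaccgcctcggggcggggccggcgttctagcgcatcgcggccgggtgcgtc
GTF2H1 chr11:18322317-18322566, plus strand: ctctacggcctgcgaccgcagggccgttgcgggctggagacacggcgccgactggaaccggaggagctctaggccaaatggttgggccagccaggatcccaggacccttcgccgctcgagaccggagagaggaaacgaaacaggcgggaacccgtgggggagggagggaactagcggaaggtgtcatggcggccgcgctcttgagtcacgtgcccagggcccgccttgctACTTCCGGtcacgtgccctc
DDB2 chr11:47214204-47214453, plus strand: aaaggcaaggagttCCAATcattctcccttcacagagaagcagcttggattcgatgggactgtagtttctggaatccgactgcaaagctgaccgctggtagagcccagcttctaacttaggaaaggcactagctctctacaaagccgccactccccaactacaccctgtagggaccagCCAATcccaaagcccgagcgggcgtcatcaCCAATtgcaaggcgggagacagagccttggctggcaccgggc

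Promoters were found for 31 of the 34 genes, RPA2, RPA3 and TCEA1 being the others. An E2F match stood in 2 of the 31, those of LIG1, which fell, and XPC, which rose, against 4.06% of 35116 promoters. A CCAAT box stood in 11 of the 31, against 32.0% of all promoters, and the promoter of DDB2 printed above holds it at 3 places. The ETS letters stood in 4 of the 31, against 3.42%. These are matches of letters in a window and no measure of binding.

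Among the 8 global genome recognition genes, 2 rose with time and 4 fell in both arms, beside the background of 55.2% of all tested genes called in the same direction in both. XPC and the scaffold CUL4B rose. RAD23B and CETN2, the partners of XPC, the adaptor DDB1 and RBX1 fell. DDB2 and the scaffold CUL4A did not pass in either arm.

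XPC (ENSG00000154767, chr3:14145147-14178621) had 68.0, 69.4 and 63.9 exon CPM in DMSO and 63.0, 70.0 and 69.9 in cisplatin at 24 h. At 72 h it had 82.4, 86.4 and 83.8 exon CPM in DMSO and 84.2, 84.1 and 81.5 in cisplatin. All 72 h libraries lay above all 24 h libraries, with a log2 change of 0.33 (SE 0.0588, adjusted p = 3.66e-05) in DMSO and 0.30 (SE 0.0583, adjusted p = 9.48e-05) in cisplatin. On the opposite strand, 16.6% of the 100-base windows of XPC lie in XPC-AS1. Its partner RAD23B moved the other way, by -0.40 in DMSO and -0.34 in cisplatin on the log2 scale.

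RBX1 (ENSG00000100387, chr22:40951347-40973309) had 72.1, 71.6 and 72.7 exon CPM in DMSO and 66.6, 71.1 and 72.9 in cisplatin at 24 h. At 72 h the values were 56.0, 48.9 and 38.4 CPM in DMSO and 37.5, 38.9 and 43.3 CPM in cisplatin. The 24 h libraries were tightly grouped and stood above every 72 h library, while the DMSO libraries of 72 h were the most spread. The fall was 0.60 on the log2 scale in DMSO (SE 0.0906, adjusted p = 3.32e-06) and 0.82 in cisplatin (SE 0.0902, adjusted p = 3.23e-08). The ligase scaffold CUL4B rose instead, by 0.40 in DMSO and 0.47 in cisplatin, and DDB1 fell by 0.52 and 0.43.

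DDB2 (ENSG00000134574, chr11:47214465-47239217), which holds the damaged base pair, had 44.8, 46.9 and 36.6 exon CPM in DMSO and 40.8, 44.8 and 41.6 in cisplatin at 24 h. The 72 h values were 46.7, 47.3 and 47.8 in DMSO and 44.6, 47.6 and 50.5 in cisplatin. The times overlapped in both arms, through DMSO replicate 2 and cisplatin replicate 2 of 24 h. Its log2 change was 0.14 in DMSO (SE 0.0772, adjusted p = 0.121) and 0.16 in cisplatin (SE 0.0764, adjusted p = 0.0699). It passed in DMSO without DMSO 24 h replicate 2 (adjusted p = 0.0379), and in cisplatin without cisplatin 24 h replicate 2 (adjusted p = 0.0439) or without cisplatin 72 h replicate 1 (adjusted p = 0.0463). It also passed in cisplatin when the 6 cisplatin libraries were fitted alone (log2 change 0.16, adjusted p = 0.0411).

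CETN2 fell by 0.18 in DMSO (SE 0.0791, adjusted p = 0.046) and by 0.39 in cisplatin (SE 0.0783, adjusted p = 0.000125). The call in DMSO was lost without DMSO 24 h replicate 2 or 3 or DMSO 72 h replicate 1 or 3, with log2 changes of -0.11 to -0.20 and adjusted p up to 0.278. It was also lost with the 6 DMSO libraries fitted alone (adjusted p = 0.0558).

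Of the 6 transcription-coupled genes, 1 rose in both arms, TCEA1, and 1 fell, USP7, the deubiquitinase that UVSSA brings to the stalled polymerase. The background was 55.2% of all tested genes called in the same direction in both arms. ERCC6, ERCC8, UVSSA and XAB2 did not pass in either arm. USP7 fell by 0.56 on the log2 scale in DMSO and by 0.53 in cisplatin. XAB2, a splicing-related partner of XPA, passed in cisplatin without cisplatin 24 h replicate 2 (log2 change 0.16, adjusted p = 0.0316, against 0.097 with all libraries).

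TCEA1 (ENSG00000187735) had 237, 266 and 279 exon CPM in DMSO and 283, 231 and 229.9 in cisplatin at 24 h. Values at 72 h were 410.2, 409.7 and 390.5 CPM in DMSO and 362, 362 and 377 CPM in cisplatin. Every 72 h library exceeded every 24 h library, and the log2 change was 0.63 in DMSO (SE 0.0677, adjusted p = 1.81e-08) and 0.56 in cisplatin (SE 0.0676, adjusted p = 1.19e-07). Of the 100-base windows of its canonical transcript, 20.6% also occur in the pseudogene TCEA1P2.

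ERCC6 (ENSG00000225830, chr10:49454168-49539538), the ATPase that senses the stalled polymerase, had 5.18, 4.89 and 4.47 exon CPM in DMSO and 5.20, 5.01 and 4.61 in cisplatin at 24 h. After 72 h there were 4.84, 4.97 and 4.69 in DMSO and 5.85, 5.44 and 5.23 in cisplatin. The 3 cisplatin libraries of 72 h were the highest of the 12, but its change with cisplatin at 72 h was 0.20 (SE 0.123, adjusted p = 0.535) and its change with time in cisplatin 0.15 (SE 0.126, adjusted p = 0.298).

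ERCC8 (ENSG00000049167, chr5:60866454-60945073), the substrate receptor of the second CUL4 ligase of the pathway, had 24.2, 25.5 and 25.5 exon CPM in DMSO and 25.4, 21.5 and 21.2 in cisplatin at 24 h. At 72 h it had 21.8, 27.3 and 23.5 in DMSO and 22.0, 24.5 and 24.0 in cisplatin. All 4 groups overlapped, and its log2 change with time was -0.055 in DMSO (95% interval -0.24 to 0.13) and 0.050 in cisplatin (-0.13 to 0.23).

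The calls among the subunits of TFIIH included rises and falls. Of all tested genes, 32.6% were higher and 32.5% lower in DMSO, and 32.0% and 31.5% in cisplatin. In the TFIIH core of 7 genes, GTF2H1 (p62) rose in both arms. ERCC3 (XPB, the translocase), GTF2H2 (p44) and GTF2H5 (p8) fell in both, GTF2H3 (p34) fell in cisplatin, and ERCC2 (XPD, the helicase) and GTF2H4 (p52) did not pass in either. In the CDK-activating kinase, CDK7 rose by 0.46 in DMSO and by 0.28 in cisplatin, while its cyclin CCNH and the assembly factor MNAT1 did not pass. MNAT1 had a log2 change of -0.22 in cisplatin (adjusted p = 0.0692), which became -0.28 without cisplatin 72 h replicate 1 (adjusted p = 0.0454), and it passed with all libraries kept when no filter on low counts was used (adjusted p = 0.0422) or the 6 cisplatin libraries were fitted alone (adjusted p = 0.0381). GTF2H2 and GTF2H4 are uncertain, since 86.1% and 91.8% of the 100-base windows of their canonical transcripts also occur in another annotated gene.

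GTF2H1 (ENSG00000110768, chr11:18322295-18367045) had 54.8, 51.9 and 58.7 exon CPM in DMSO and 57.1, 52.5 and 55.0 in cisplatin at 24 h. The 72 h values were 73.8, 72.4 and 69.7 in DMSO and 73.0, 68.4 and 69.3 in cisplatin, all above the 24 h libraries. The log2 change was 0.39 in DMSO (SE 0.0617, adjusted p = 7.45e-06) and 0.36 in cisplatin (SE 0.0612, adjusted p = 1.97e-05).

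ERCC2 (ENSG00000104884, chr19:45349837-45370918) had 19.0, 16.6 and 16.2 exon CPM in DMSO and 14.6, 18.6 and 16.3 in cisplatin at 24 h. Values at 72 h were 18.8, 16.8 and 16.5 in DMSO and 18.2, 18.7 and 19.0 in cisplatin, and the groups overlapped. Its log2 change with time was 0.0019 in DMSO (95% interval -0.20 to 0.20) and 0.17 in cisplatin (-0.03 to 0.36), where it passed without cisplatin 24 h replicate 2 (log2 change 0.28, adjusted p = 0.0233).

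The falls of ERCC3 were 0.24 in DMSO and 0.28 in cisplatin, and those of GTF2H2 0.35 and 0.31, with adjusted p of 0.00706 or less. GTF2H5 fell by 0.20 in DMSO (adjusted p = 0.0473) and by 0.43 in cisplatin (adjusted p = 9.61e-05). Its call in DMSO was lost without any of the 3 DMSO 24 h libraries or DMSO 72 h replicate 1 or 3, with log2 changes of -0.15 to -0.20. GTF2H3 fell by 0.19 in cisplatin (adjusted p = 0.0382), a call lost without cisplatin 24 h replicate 2 or 3 or cisplatin 72 h replicate 1 or 3, with log2 changes of -0.16 to -0.21. It was also lost without a filter on low counts (adjusted p = 0.0711) and with the 6 cisplatin libraries fitted alone (adjusted p = 0.0559).

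Among the 7 verification and incision genes, all 3 RPA subunits fell and ERCC1 and ERCC5 rose in both arms. These calls stand beside the 55.2% of all tested genes called in the same direction in both. XPA rose in DMSO, and ERCC4 did not pass in either arm. The RPA complex coats the undamaged strand and is also used in DNA replication.

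RPA1 (ENSG00000132383, chr17:1829702-1900082), the large subunit, had 290.3, 291 and 312 exon CPM in DMSO and 302, 285 and 292 in cisplatin at 24 h. After 72 h there were 144, 148 and 141 CPM in DMSO and 153, 145 and 149 CPM in cisplatin. The highest 72 h library was far below the lowest 24 h library, and the exon counts were 2.07-fold lower in DMSO (log2 change -1.05, SE 0.0498, adjusted p = 1.07e-14) and 1.97-fold lower in cisplatin (log2 change -0.98, SE 0.0494, adjusted p = 3.83e-14).

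RPA2 (ENSG00000117748, chr1:27891524-27914746) had 153, 162 and 162 exon CPM in DMSO and 162, 155 and 175 in cisplatin at 24 h. At 72 h it had 96.9, 94.4 and 88.4 in DMSO and 88.2, 89.6 and 92.0 in cisplatin. The times did not overlap, with a fall of 0.77 on the log2 scale in DMSO (SE 0.0565, adjusted p = 2.66e-11) and of 0.87 in cisplatin (SE 0.0561, adjusted p = 3.05e-12).

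RPA3 (ENSG00000106399, chr7:7636518-7718607), the small subunit, had 60.3, 68.3 and 66.9 exon CPM in DMSO and 71.4, 66.4 and 65.8 in cisplatin at 24 h. The 72 h values were 60.2, 59.0 and 48.0 in DMSO and 50.1, 49.8 and 55.0 in cisplatin. In DMSO the times were apart by the narrow gap between 60.2 and 60.3 CPM. The fall was 0.23 in DMSO (SE 0.0771, adjusted p = 0.0117) and 0.40 in cisplatin (SE 0.0763, adjusted p = 8.49e-05). The call in DMSO was lost without DMSO 24 h replicate 2 (log2 change -0.19) or DMSO 72 h replicate 3 (log2 change -0.13).

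ERCC1 (ENSG00000012061, chr19:45407334-45478828) showed the largest rise of the set, with 98.9, 103 and 90.8 exon CPM in DMSO and 97.7, 96.6 and 95.7 in cisplatin at 24 h. Values at 72 h were 187, 186 and 174 CPM in DMSO and 153, 168 and 157 CPM in cisplatin. All 72 h libraries were above all 24 h libraries, and within 72 h the cisplatin libraries were below the DMSO libraries. The log2 change with time was 0.90 in DMSO (1.87-fold, SE 0.0566, adjusted p = 1.58e-12) and 0.72 in cisplatin (1.65-fold, SE 0.0564, adjusted p = 9.27e-11). The difference between these rises was -0.18 on the log2 scale (SE 0.0795, adjusted p = 0.509). On the opposite strand, 45.6% of the 100-base windows of ERCC1 lie in POLR1G, whose exon counts fell by 0.40 in DMSO and by 0.34 in cisplatin.

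ERCC4 (ENSG00000175595, chr16:13920138-13952348), the nuclease partner of ERCC1, had 16.2, 16.96 and 19.9 exon CPM in DMSO and 17.1, 17.7 and 16.2 in cisplatin at 24 h. After 72 h there were 14.1, 15.1 and 16.3 in DMSO and 18.7, 15.7 and 17.7 in cisplatin. The groups overlapped, and its log2 change with time was -0.21 in DMSO (SE 0.0973, adjusted p = 0.0605) and 0.023 in cisplatin (SE 0.0947, adjusted p = 0.842). In DMSO it passed without DMSO 24 h replicate 1 (adjusted p = 0.0296) or DMSO 72 h replicate 3 (adjusted p = 0.0376), with a log2 change of -0.27 in each case.

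ERCC5 (ENSG00000134899, chr13:102845831-102875995), the 3′ nuclease, had 63.7, 63.3 and 59.7 exon CPM in DMSO and 63.1, 60.1 and 61.6 in cisplatin at 24 h. At 72 h it had 73.1, 77.7 and 78.2 in DMSO and 83.9, 73.3 and 74.7 in cisplatin. All 72 h libraries were above the 24 h libraries, with a log2 change of 0.29 in DMSO (SE 0.0621, adjusted p = 0.000222) and 0.33 in cisplatin (SE 0.0617, adjusted p = 6.36e-05). ERCC5 is uncertain as a single gene, because 91.5% of its 100-base windows also belong to the readthrough gene BIVM-ERCC5.

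XPA (ENSG00000136936, chr9:97674909-97697340), the verification factor, had 15.2, 14.5 and 15.8 exon CPM in DMSO and 15.3, 16.2 and 16.2 in cisplatin at 24 h. The 72 h values were 20.2, 19.4 and 17.5 in DMSO and 16.3, 16.5 and 15.96 in cisplatin. The 72 h DMSO libraries were the highest 3 of the 12. XPA rose with time in DMSO by 0.32 on the log2 scale (SE 0.0847, adjusted p = 0.00177), and its change in cisplatin was 0.034 (SE 0.0833, adjusted p = 0.733). The difference between the arms, -0.29 (SE 0.119), had an adjusted p of 0.498, so that a change particular to DMSO was not shown.

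**Figure D4:**
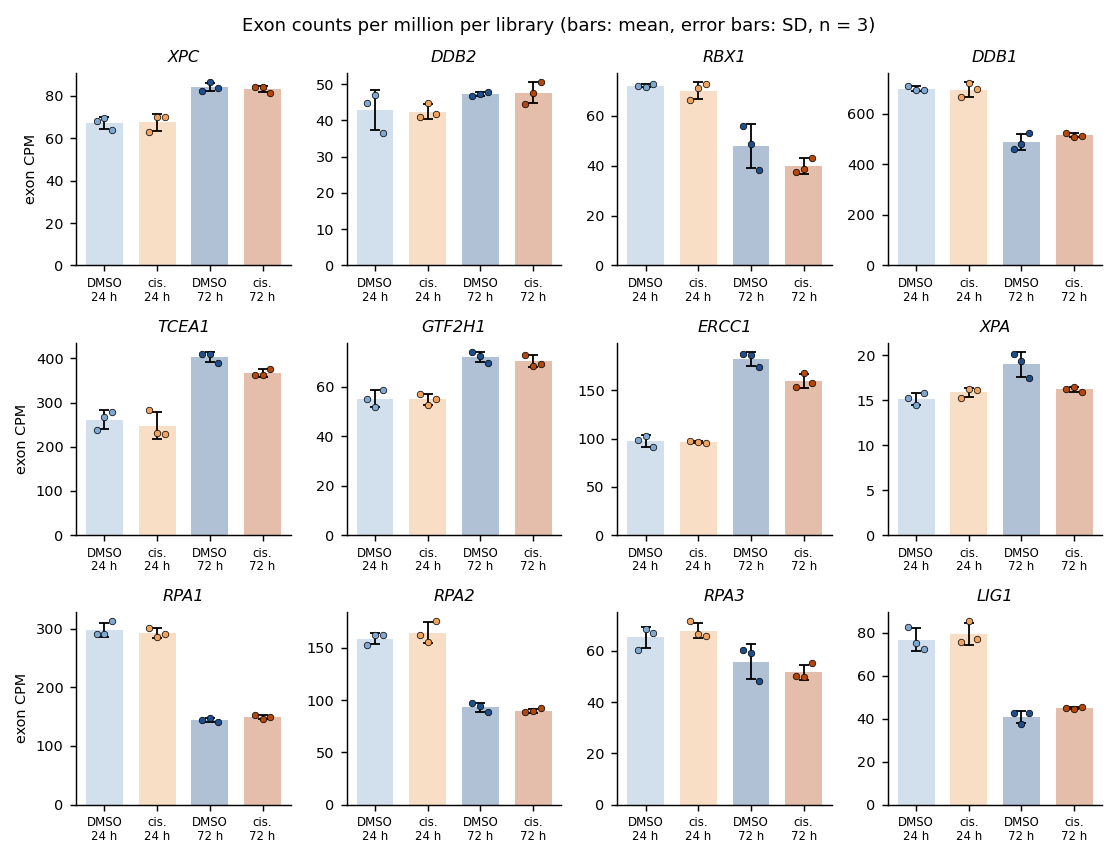
Exon CPM of 12 NER genes in each library (points), with the mean of 3 libraries as bars and the SD as error bars, by group. RPA1, RPA2 and LIG1 are lower in every 72 h library, and TCEA1, GTF2H1, XPC and ERCC1 are higher, in both DMSO and cisplatin (cis.).

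Of the 3 ligation genes, LIG1, the ligase that also joins Okazaki fragments, fell in both arms, and LIG3 and its partner XRCC1 did not pass in either. Over all tested genes, 55.2% were called in the same direction in both arms. LIG1 (ENSG00000105486, chr19:48115445-48170603) had 82.9, 75.5 and 72.3 exon CPM in DMSO and 75.9, 85.3 and 77.1 in cisplatin at 24 h. Values at 72 h were 42.5, 37.4 and 42.5 in DMSO and 44.9, 44.6 and 45.5 in cisplatin. The times were far apart, with counts 1.88-fold lower in DMSO (log2 change -0.91, SE 0.0689, adjusted p = 4.19e-11) and 1.77-fold lower in cisplatin (log2 change -0.82, SE 0.0675, adjusted p = 2.12e-10). The log2 changes of LIG3 were -0.078 and 0.0068 and those of XRCC1 0.051 and 0.048, with 95% intervals from -0.23 to 0.18 over these 4 values. On the opposite strand, 44.1% of the 100-base windows of LIG3 lie in RFFL, so that its counts are uncertain.

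Intron counts, which come from unspliced RNA or retained introns in this poly(A) selected RNA, were tested in the same way. With cisplatin, 0 of 34 NER genes were called at 24 h (background 0.0208%) and 0 at 72 h (background 0.0416%) by edgeR, with 2 and 4 at an unadjusted p under 0.05 (5.00% and 6.46% of all genes tested), and DESeq2 called 0 of 34 at 24 h. At 72 h DESeq2 called 0 but gave no adjusted p for 29 of the 34, so that its count covers 5 genes. Between times, 9 NER genes were called in DMSO, 3 higher and 6 lower, against 33.4% of all genes tested (17.2% higher and 16.2% lower). In cisplatin 12 were called, 4 higher and 8 lower, against 31.8% (16.4% higher and 15.4% lower). The libraries did not overlap in 5 and 7 NER genes with cisplatin at 24 and 72 h (background 8.94% and 13.4%), and in 10 and 13 between times in DMSO and cisplatin (background 43.1% and 42.2%). Counts of ERCC1, CUL4B and TCEA1 were higher and those of LIG1, RPA1, RPA2, DDB2 and GTF2H2 were lower in both arms, 8 genes against 23.0% of all genes tested.

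For RPA1 the intron counts were 54.6, 52.96 and 53.8 CPM of all intron counts in DMSO and 48.6, 56.8 and 52.1 in cisplatin at 24 h, against 23.5, 24.8 and 20.6 in DMSO and 29.9, 27.3 and 28.7 in cisplatin at 72 h. LIG1 had 179, 211 and 181 intron CPM in DMSO and 200.2, 239 and 193 in cisplatin at 24 h, against 100.5, 86.7 and 94.4 in DMSO and 105, 108 and 109 in cisplatin at 72 h. Intron counts of both genes were thus lower in every 72 h library, as their exon counts were. The log2 change of the intron counts was -1.24 in DMSO (SE 0.189) and -0.88 in cisplatin (SE 0.174) for RPA1, and -1.02 (SE 0.118) and -0.98 (SE 0.111) for LIG1, with adjusted p of 5.57e-05 or less.

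RPA2 had few intron counts, 13 to 67 in a library. In intron CPM it had 16.95, 15.3 and 19.1 in DMSO and 20.02, 24.2 and 21.5 in cisplatin at 24 h, against 7.64, 7.17 and 10.3 in DMSO and 11.98, 7.53 and 9.41 in cisplatin at 72 h. All 72 h libraries were below all 24 h libraries, with log2 changes of -0.98 in DMSO (SE 0.314, adjusted p = 0.0116) and -1.21 in cisplatin (SE 0.28, adjusted p = 0.000563).

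RPA3 had 16.4, 13.7 and 10.6 intron CPM in DMSO and 22.3, 13.03 and 19.0 in cisplatin at 24 h, against 12.9, 14.3 and 12.02 in DMSO and 8.38, 9.68 and 10.8 in cisplatin at 72 h. The times overlapped in DMSO and not in cisplatin, where the log2 change was -0.89 (SE 0.294, adjusted p = 0.0162). That call was lost without cisplatin 24 h replicate 1 (log2 change -0.69) or cisplatin 72 h replicate 1 (log2 change -0.80).

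On the rising side, ERCC1 had 525, 591 and 492 intron CPM in DMSO and 539.5, 531 and 508 in cisplatin at 24 h, against 968, 899 and 836 in DMSO and 796, 783 and 706 in cisplatin at 72 h. TCEA1 had 30.2, 37.2 and 32.6 in DMSO and 37.8, 26.8 and 42.2 in cisplatin at 24 h, against 82.2, 66.2 and 54.2 in DMSO and 49.7, 54.4 and 53.3 in cisplatin at 72 h. In both genes all 72 h libraries were above all 24 h libraries, as for exon counts. The log2 change was 0.75 in DMSO and 0.53 in cisplatin for ERCC1 (SE 0.0885 and 0.088), and 0.998 and 0.61 for TCEA1 (SE 0.184 and 0.181). The TCEA1 call in cisplatin was lost without cisplatin 24 h replicate 2, where the log2 change was 0.40 (adjusted p = 0.125). FOSB, on the opposite strand, shares 7185 bases with the span of ERCC1 and 0 bases with its exons, and UMAD1 shares 77897 bases with that of RPA3. MCTS1 likewise shares 10065 bases with the span of CUL4B and 0 with its exons, so that intron counts of all 3 genes are uncertain where strand was not used in the counting.

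The intron calls of CUL4B, DDB2 and GTF2H2 in both arms held in all 12 alternatives. So did that of ERCC2 in cisplatin (log2 change -0.52, adjusted p = 0.00744 by edgeR). Other intron calls were thinner, and some appeared with a library left out. CUL4A was called in cisplatin at a log2 change of 0.30 and GTF2H3 at -0.48, calls that were lost without 3 and 4 of the 6 libraries in turn, and GTF2H5 in DMSO at -0.95 was lost without 3 of them. For CUL4A these were cisplatin 24 h replicates 1 and 3 and cisplatin 72 h replicate 2 (log2 change 0.26 to 0.29), and for GTF2H3 cisplatin 24 h replicates 2 and 3 and cisplatin 72 h replicates 1 and 2 (log2 change -0.37 to -0.48). For GTF2H5 they were DMSO 24 h replicate 3 and DMSO 72 h replicates 1 and 3 (log2 change -0.54 to -0.89). In DMSO, RBX1 (log2 change 0.54) and ERCC4 (log2 change -0.57) passed without DMSO 24 h replicate 1. In cisplatin, UVSSA (log2 change 0.49 with all libraries, adjusted p = 0.0777) passed when the 6 cisplatin libraries were fitted alone (0.50, adjusted p = 0.0459), and UVSSA (0.72) and ERCC4 (-0.65) passed without cisplatin 24 h replicate 2 and ERCC5 (0.61) without cisplatin 24 h replicate 3.

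The ratio of exon to intron counts compares the 2 kinds of count within a gene and library. The study used it to ask how cisplatin affects splicing, and reported less splicing with cisplatin at both 24 and 72 h. With edgeR, which includes the spread between replicates, 0 of 34 NER genes had a changed ratio with cisplatin at 24 h (background 0.0%) and 0 at 72 h (background 0.0213%), with 4 and 2 at an unadjusted p under 0.05 (6.33% and 6.24% of all genes tested), and DESeq2 called 0 at both times. The ratio was lower with cisplatin in 28 NER genes at 24 h and in 25 at 72 h. Of all 9380 genes tested, 3178 were higher at 24 h and 3105 at 72 h. The median log2 change was -0.18 and -0.085 over the NER genes, against -0.086 and -0.084 over all genes tested. The binomial logistic regression of the study's methods, which leaves that spread out, called 5 at 24 h, GTF2H5 higher and ERCC2, GTF2H2, LIG1 and XRCC1 lower, against 11.5% of all genes tested (0.765% higher and 10.7% lower). At 72 h it called USP7 higher and XPC lower, 2 genes, against 11.4% (1.73% higher and 9.70% lower). With the spread added to that model as a quasi-binomial term, it called 0 NER genes at each time, with 4 and 2 at an unadjusted p under 0.05, and 0 of all genes tested. The ratio of XPC was 19.3 ± 3.38 exon counts per intron count (SD, n = 3) in DMSO and 15.5 ± 1.29 in cisplatin at 72 h, and the libraries overlapped.

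Between times, 3 NER genes had a changed ratio by edgeR in DMSO, 2 higher and 1 lower (background 11.5%, with 8.09% higher and 3.37% lower). In cisplatin there were 4, 3 higher and 1 lower (background 11.9%, with 8.36% higher and 3.56% lower). The ratios of the libraries did not overlap in 8 NER genes in each arm (background 28.3% in DMSO and 29.8% in cisplatin), and in 6 and 4 with cisplatin at 24 and 72 h (background 9.53% and 14.4%). DDB2 and GTF2H1 were higher and RBX1 was lower in both arms, against 6.28% of all genes tested, and ERCC2 was higher in cisplatin. The median over all genes tested was itself 0.10 higher in DMSO and 0.11 higher in cisplatin on the log2 scale, and the values of these genes are to be read against that shift. With a library left out, USP7 passed in DMSO without DMSO 24 h replicate 1 (log2 change -0.92). In cisplatin, CUL4A (-0.45) and ERCC4 (0.73) passed without cisplatin 24 h replicate 2 and GTF2H2 (0.63) without cisplatin 72 h replicate 3.

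DDB2 had the largest rise of the ratio. It had 7.35, 9.54 and 8.08 exon counts per intron count in DMSO and 6.26, 7.07 and 7.35 in cisplatin at 24 h, against 19.98, 16.4 and 16.9 in DMSO and 13.6, 17.7 and 16.2 in cisplatin at 72 h. The times did not overlap, and the log2 change was 1.09 in DMSO (SE 0.173, adjusted p = 9.94e-05) and 1.199 in cisplatin (SE 0.162, adjusted p = 1.22e-05). The change lay in the intron counts, which were 84.2, 71.8 and 59.5 CPM in DMSO and 85.2, 78.2 and 80.2 in cisplatin at 24 h and 34.7, 41.9 and 40.5 in DMSO and 46.1, 37.0 and 41.7 in cisplatin at 72 h. They fell by 0.88 on the log2 scale in DMSO (adjusted p = 2.32e-05) and by 0.97 in cisplatin (adjusted p = 1.35e-06), while its exon counts did not pass in the fit of all 12 libraries.

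RBX1 was the reverse case. Its ratio was 15.5, 26.6 and 22.1 in DMSO and 19.3, 19.1 and 37.8 in cisplatin at 24 h, against 14.0, 11.4 and 9.57 in DMSO and 11.9, 9.34 and 10.7 in cisplatin at 72 h. All 72 h ratios were below all 24 h ratios, with log2 changes of -0.85 in DMSO (SE 0.216, adjusted p = 0.0103) and -1.09 in cisplatin (SE 0.214, adjusted p = 0.00107). Its exon counts fell, whereas its intron counts had log2 changes of 0.28 (adjusted p = 0.236) and 0.35 (adjusted p = 0.128). The call in DMSO was lost without DMSO 24 h replicate 2 (log2 change -0.66) or DMSO 72 h replicate 3 (log2 change -0.70).

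GTF2H1 had a ratio of 8.71, 6.88 and 8.01 in DMSO and 7.92, 7.36 and 6.74 in cisplatin at 24 h, against 13.4, 10.8 and 12.7 in DMSO and 10.9, 13.2 and 10.6 in cisplatin at 72 h. The times did not overlap, with log2 changes of 0.65 in DMSO (SE 0.153, adjusted p = 0.00564) and 0.66 in cisplatin (SE 0.148, adjusted p = 0.00383). Its exon counts rose, and its intron counts had log2 changes of -0.19 and -0.22 that did not pass.

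ERCC2 had a ratio of 4.81, 5.17 and 3.63 in DMSO and 2.73, 3.21 and 3.78 in cisplatin at 24 h, against 7.09, 6.15 and 4.96 in DMSO and 5.29, 5.77 and 5.05 in cisplatin at 72 h. The times overlapped in DMSO and not in cisplatin. The log2 change was 0.38 in DMSO (SE 0.201, adjusted p = 0.235) and 0.76 in cisplatin (SE 0.187, adjusted p = 0.00765), and the difference between the arms was 0.37 (SE 0.274, adjusted p = 0.998). The call in cisplatin was lost without cisplatin 24 h replicate 1 (log2 change 0.65) or cisplatin 72 h replicate 2 (log2 change 0.70). Intron counts of ERCC2 had log2 changes of -0.31 in DMSO (adjusted p = 0.147) and -0.52 in cisplatin (adjusted p = 0.00744). Its exon counts did not pass in either arm with all libraries.

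**Figure D5:**
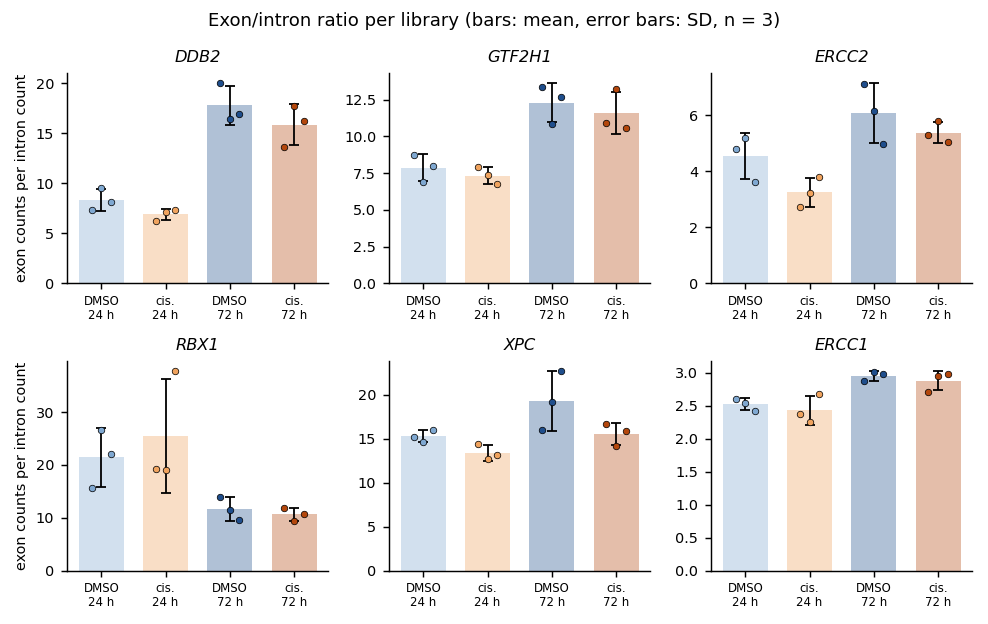
Exon counts per intron count of 6 NER genes in each library (points), with the mean of 3 libraries as bars and the SD as error bars. DDB2 and GTF2H1 are higher and RBX1 is lower in every 72 h library than in any 24 h library, ERCC2 is higher at 72 h in cisplatin (cis.), and XPC and ERCC1 did not pass edgeR's test of the ratio.

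The logistic regression called more ratios between times, 14 in DMSO (8 higher and 6 lower, against a background of 22.5% higher and 11.1% lower, 33.7% in all) and 16 in cisplatin (12 higher and 4 lower, against 29.0% and 11.6%, 40.6% in all). DDB2, GTF2H1 and RBX1 were among them in both arms, in the directions given above, and ERCC1 was called higher in both, at 0.22 in DMSO and 0.28 in cisplatin on the log2 scale. With the quasi-binomial term it called 0 in each arm, with 6 and 5 at an unadjusted p under 0.05, and it called few of all genes tested, 0.657% in DMSO and 0.988% in cisplatin.

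Other genes of the pathway were counted from lists of their roles, which were chosen with earlier results of these data known. The counts below only describe these lists. Of 15 gap-filling genes (PCNA, its loader RFC, and the polymerases that fill the excised stretch), 13 passed the filter on low exon counts, and 11 of these fell with time in DMSO and 11 in cisplatin, with 0 rising, against 32.5% and 31.5% of all tested genes that were lower. PCNA, the sliding clamp, fell by 1.72 in DMSO (SE 0.0613) and by 1.64 in cisplatin (SE 0.0607) on the log2 scale, while POLE4 and POLK did not pass in either arm. The median of the list was -0.88 in DMSO and -0.78 in cisplatin, against 0.015 and 0.017 over all tested genes.

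The next counts stand beside the 32.6% of all tested genes that were higher and 32.5% that were lower in DMSO, and 32.0% and 31.5% in cisplatin. Of 11 tested modifiers of global genome recognition, 5 fell and 0 rose in DMSO, and 4 fell and 3 rose in cisplatin. Of 9 COP9 signalosome genes, which act on the CUL4 ligases, 3 rose and 5 fell in DMSO, and 3 rose and 4 fell in cisplatin. Of 6 tested partners of transcription-coupled repair, 3 rose and 2 fell in DMSO, and 2 rose and 3 fell in cisplatin. Of the 9 tested p53 targets, 2 rose and 0 fell in each arm, beside the 55.2% of all tested genes called in the same direction in both. The genes were GDF15, which rose by 2.61 in DMSO and 2.33 in cisplatin, and SESN2, by 2.41 and 2.40, on the log2 scale. With cisplatin against DMSO, 0 genes of these 4 pathway lists passed at either time by edgeR.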

How the data were processed

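RNA was poly(A) selected, prepared with a directional kit and sequenced on a single lane, per the labels. The authors trimmed reads with Trim Galore 0.6.0, aligned them to GRCh38 with HISAT2 2.1.0 and counted fragments in separate exon (intersection-strict) and intron (union) annotations of Ensembl release 98 with HTSeq-count, per the methods and the submitters' processing notes. The deposited values are whole-number counts, neither normalized nor pooled. The strand option of the counting is not given in the sources used here, so opposite-strand overlaps are uncertain.

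Exon and intron counts were tested in 1 fit of the 12 libraries with edgeR 4.0.16 (glmQLFTest, TMM within each kind of count, filterByExpr) in R 4.3.3. The exon/intron ratio was tested with 1 term per library, after dropping genes that reached 10 counts of both kinds in fewer than 3 libraries. Adjusted p-values (Benjamini-Hochberg over all genes tested) under 0.05 were called. The study's logistic regression was run with a Wald test on genes with no zero of either kind among the 6 libraries compared. DESeq2 1.42.0, other scaling, filters, a replicate block and leaving out each library were alternatives. The tests were tested on simulated data. CPM used TMM-scaled library sizes. Names, positions and lengths came from GENCODE release 44 by Ensembl identifier, for 17485 of 17508 genes. Tables were made with Python 3.11.15, pandas 2.3.3 and numpy 2.4.6 and plots with matplotlib 3.10.9.

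Every library's values are given for XPC, DDB2, ERCC6, ERCC8, XPA, ERCC1, ERCC4 and ERCC5, and for up to 4 called genes of largest change per comparison and kind of count. The members and lists were chosen with earlier results of these data known. The labels do not say whether libraries with the same replicate number belong together. Correlations of same-numbered libraries' deviations from their group means ran from -0.11 to 0.10, so no strong pairing was seen. No replicates matched within sampling noise (chi-square per degree of freedom at least 3.84).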

Additional observations from a re-analysis of the deposited data

How the results depend on the processing

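Leaving out each of the 6 libraries of a comparison in turn, exon calls between 24 and 72 h among the 34 NER genes ran from 18 to 20 in DMSO and 19 to 22 in cisplatin, intron calls from 8 to 11 and 10 to 12, and ratio calls by edgeR from 2 to 4 and 3 to 6. No called NER gene changed direction under any alternative that gave it a value. GTF2H5, called by the logistic regression with cisplatin at 24 h, could not be tested with a minimum of 10 counts, where 31 of the 34 genes were fitted. With cisplatin against DMSO, the exon count of 0 at 72 h became 1 under DESeq2 (ERCC1, with adjusted p not given for 14 genes) and 1 without a filter on low counts (RBX1), and ran from 0 to 1 when libraries were left out (RBX1). Over all genes, 0 higher and 3 lower of 10444 in the main fit became 38 and 41 of 10444 under DESeq2. Without the filter there were 93 higher and 61 lower of 13148. In the logistic regression, the quasi-binomial term gave 0 in all 4 comparisons, and leaving out a library gave 2 to 7 with cisplatin at 24 h, 0 to 3 at 72 h, 8 to 14 between times in DMSO and 12 to 14 in cisplatin. Scaling intron counts by the exon factors moved the share of all called genes that were higher at 72 h from 51.6% to 42.2% in DMSO and from 51.6% to 40.4% in cisplatin, and ended the intron call of CUL4A. The cause of these moves was not tested.

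No strong pairing of the libraries by replicate number was seen, which does not exclude a weak one. With the replicate block the exon calls were 0 at 24 h and 0 at 72 h with cisplatin, 19 between times in DMSO, where CETN2 was lost (adjusted p = 0.054), and 20 in cisplatin. Intron calls were 0, 0, 9 and 12, ratio calls by edgeR 0, 0, 3 and 4, and logistic calls 5, 3, 13 and 16 in the same order. Intron counts were few for some genes, such as GTF2H5 with 5 to 40 in a library. The median SE of the log2 change with cisplatin at 24 h was 0.191 for intron counts and 0.0688 for exon counts.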
